A study of Homo sapiens with 15 samples.

Results

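The replication-type H2B histone genes H2BC4, H2BC5, H2BC6, H2BC7, H2BC8, H2BC9, H2BC11, H2BC12, H2BC15 and H2BC21 were followed across 5 treatment groups of the BRCA1-deficient human breast cancer line MDA-MB-436. Cells were kept for 7 days in 10 nM AG014699, in 100 nM AG014699, in the PI3K inhibitor LY294002, in 100 nM AG014699 with LY294002 (called the combination here), or in the solvent DMSO, with 3 arrays in each group. AG014699 (rucaparib) is an inhibitor of PARP1, an enzyme of DNA strand break repair. The sources used here state no LY294002 dose. The members were the probes that the array annotation assigns to 1 of these 10 genes and to no other. They were 12 of the 48107 probes in the signal table. H2BC5 and H2BC12 each had 2 probes, numbered here by mean signal with the brighter as probe 1. Any probe annotated to more than 1 gene was left out beforehand, so probes shared by annotation were not looked for. Probe sequences were not used here, and the coding sequences of these copies are very alike, so a probe may also take up RNA of a neighbouring copy.

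H2B is a core histone that pairs with H2A in the nucleosome. Its replication-type genes lie in clusters with those of the other core histones and are known to be transcribed mainly in S phase, when new DNA has to be packed. Their mRNAs typically end in a stem-loop that is bound by SLBP and carry no poly(A) tail. Some copies, H2BC5, H2BC12 and H2BC21 among them, are also known to give polyadenylated transcripts. The labelling kit named in the labels copies RNA from its poly(A) tail, so the signals below need not follow the total amount of H2B mRNA.

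RefSeq (GRCh38.p14) holds a promoter window, 250 bases before to 50 bases after the gene's start, for all 10 genes, of which 9 lie on chromosome 6 and 1, H2BC21, on chromosome 1. Altogether 3 short motifs were searched on both strands: the octamer ATTTGCAT, which the factor POU2F1 is known to bind in H2B promoters, CCAAT and TATAAA. The octamer was found in 8 of 10 member promoters, in 10 of 42 promoters of other replication-type histone genes (23.8%) and in 1.77% of all 35116 promoters of this length. CCAAT was found in all 10 member promoters, in 81% of those of the other replication-type histone genes and in 34.6% of all promoters. TATAAA was found in 7 of 10, in 64.3% and in 11.5%, so CCAAT and TATAAA were common to the histone promoters at large. The octamer was found in a smaller share of the other replication-type histone promoters than of the member promoters. Matches of different motifs did not overlap, and TATAAA matched on both strands at overlapping places in H2BC11 and H2BC12. A match describes the letters of a window and does not show binding. The windows of the 4 genes whose changes by AG014699 were clearest and of H2BC9, which moved the other way, are shown 5' to 3', with letters of the motifs in capitals.
H2BC21 promoter, chr1:149886633-149886932, strand -: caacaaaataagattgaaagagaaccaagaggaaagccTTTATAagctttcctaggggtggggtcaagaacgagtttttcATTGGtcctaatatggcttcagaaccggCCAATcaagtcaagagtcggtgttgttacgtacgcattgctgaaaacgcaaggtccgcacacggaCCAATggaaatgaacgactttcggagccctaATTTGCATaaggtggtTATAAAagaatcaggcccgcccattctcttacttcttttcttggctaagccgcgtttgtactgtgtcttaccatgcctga
H2BC12 promoter, chr6:27146806-27147105, strand -: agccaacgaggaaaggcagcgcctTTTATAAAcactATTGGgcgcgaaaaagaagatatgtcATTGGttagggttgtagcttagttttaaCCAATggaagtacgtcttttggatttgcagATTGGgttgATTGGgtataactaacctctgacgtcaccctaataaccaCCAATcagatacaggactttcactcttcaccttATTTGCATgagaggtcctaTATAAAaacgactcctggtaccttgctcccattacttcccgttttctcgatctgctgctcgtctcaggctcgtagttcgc
H2BC5 promoter, chr6:26157872-26158171, strand +: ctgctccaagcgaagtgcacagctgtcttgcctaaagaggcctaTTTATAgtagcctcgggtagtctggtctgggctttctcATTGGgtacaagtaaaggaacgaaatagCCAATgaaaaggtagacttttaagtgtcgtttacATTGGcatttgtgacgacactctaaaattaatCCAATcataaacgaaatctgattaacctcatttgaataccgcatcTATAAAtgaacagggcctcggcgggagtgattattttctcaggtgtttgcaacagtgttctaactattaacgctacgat
H2BC8 promoter, chr6:26216639-26216938, strand -: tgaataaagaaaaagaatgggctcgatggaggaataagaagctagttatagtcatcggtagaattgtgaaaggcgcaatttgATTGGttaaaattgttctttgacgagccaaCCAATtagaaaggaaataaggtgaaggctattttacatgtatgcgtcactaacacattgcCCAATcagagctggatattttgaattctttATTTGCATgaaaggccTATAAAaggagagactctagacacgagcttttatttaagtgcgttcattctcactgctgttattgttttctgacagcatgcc
H2BC9 promoter, chr6:26251364-26251663, strand +: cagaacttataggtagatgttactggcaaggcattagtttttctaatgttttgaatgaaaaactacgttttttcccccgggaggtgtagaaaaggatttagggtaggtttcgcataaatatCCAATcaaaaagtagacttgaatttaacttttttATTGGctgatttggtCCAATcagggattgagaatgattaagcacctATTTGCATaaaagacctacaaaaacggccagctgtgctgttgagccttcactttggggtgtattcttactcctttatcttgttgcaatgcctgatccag
In these windows the octamer starts 46 bases before the gene in H2BC21, 49 in H2BC12, 48 in H2BC8 and 49 in H2BC9, and no match to its 8 letters is present in H2BC5. H2BC11 has it 47 bases before the start, whereas in H2BC4, H2BC6 and H2BC7 it lies 123, 108 and 111 bases away. H2BC15 has no match. The gene that fell, H2BC9, thus shares the octamer and its place with H2BC8, H2BC11, H2BC12 and H2BC21, and differs from these 4 in having no TATAAA in the window. H2BC7 and H2BC15 have no TATAAA either. In DMSO H2BC7 was detected on 1 of 3 arrays and H2BC15 on 0, so a fall of these could hardly show. Whether a motif bears on the changes was not tested.

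**Figure D1:**
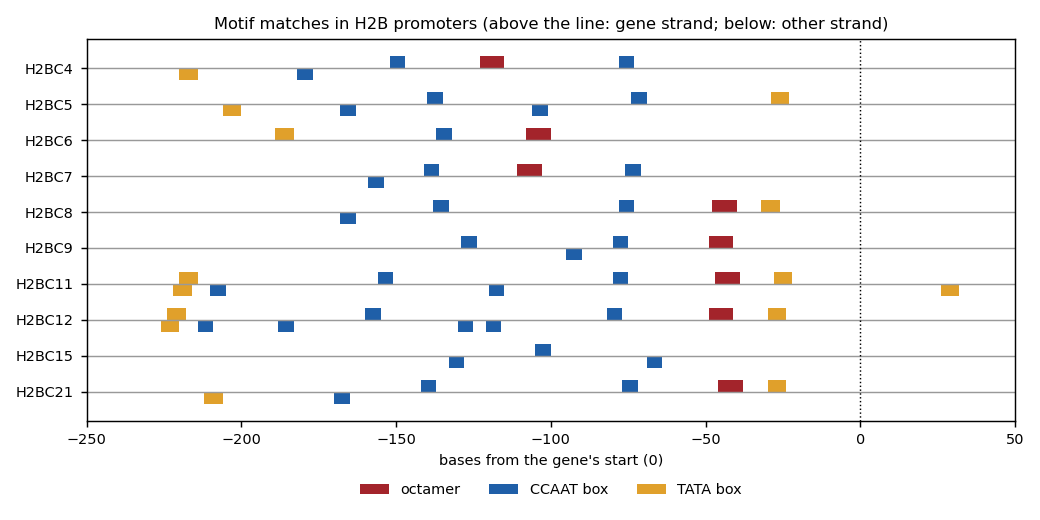
Matches of the octamer, CCAAT and TATAAA in the promoter windows of the 10 H2B genes, by distance in bases from the gene's start, with matches on the gene's strand above each line and those on the other strand below it. The octamer lies 46 to 49 bases before the start in 5 genes and 108 to 123 bases before it in 3, and H2BC5 and H2BC15 have none.

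Between 18971 and 20808 of the probes were detected per array (detection p under 0.05), and log2 signals of arrays correlated at 0.979 to 0.991 within groups and at 0.965 to 0.987 between groups. Of the marker genes of the line, VIM, CD44, KRT18 and AXL were detected on all 15 arrays and SPARC on 2. The estrogen receptor gene ESR1 was detected on 3 arrays, the endothelial gene PECAM1 on 2, and ERBB2 and the leukocyte marker gene CD14 on all 15. After a filter on dim probes (detected on at least 3 of the 15 arrays) 23680 probes were tested, and all 12 H2B probes passed the filter. Values are normalized log2 signals, and a change is a difference of group means with the standard error (SE) of a limma fit to all 15 arrays. A probe is said to have risen or fallen where its p, adjusted over all 23680 probes, was under 0.05. Nothing in the labels says that the triplicates came from separate cultures, so the p-values speak of array-to-array spread alone, and that may be technical. The 4 treated groups share the same 3 DMSO arrays.

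AG014699 at 100 nM raised 8 of the 12 H2B probes against DMSO and lowered 1, and 3 did not pass. Of all tested probes 7.33% rose and 6.81% fell in this comparison. The 8 probes belong to 6 genes, H2BC5, H2BC6, H2BC8, H2BC11, H2BC12 and H2BC21, and the probe that fell is that of H2BC9. All 100 nM arrays lay above all DMSO arrays for 8 of the 12 probes and below them for 1, against 14.7% and 15.2% of all tested probes. The median change of the 12 probes was 1.11 on the log2 scale, against -0.03 over all tested probes. RNA came from whole cultures, so more cells that hold an RNA and more of it in each cell cannot be told apart.

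H2BC21 is the member on chromosome 1, apart from the main histone cluster. Its log2 signals were 7.61, 7.64 and 7.74 at 10 nM AG014699, 8.99, 8.96 and 8.47 at 100 nM, 8.04, 7.81 and 8.05 with LY294002 and 9.42, 9.54 and 9.39 in the combination, against 6.58, 6.87 and 6.53 in DMSO. No array of any group reached into another group, and the order from high to low was combination, 100 nM AG014699, LY294002, 10 nM AG014699 and DMSO. H2BC21 averaged 8.81 ± 0.29 at 100 nM and 6.66 ± 0.18 in DMSO (SD, n = 3 each), a change of 2.15 (SE 0.16, limma adjusted p = 3.54e-07) or 4.43-fold. Array 3 of the 100 nM group was the lowest of its group.

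H2BC8, a gene of the chromosome 6 cluster, changed by 2.23 (SE 0.15, limma adjusted p = 2e-07) at 100 nM against DMSO, or 4.69-fold. Its log2 signals were 6.06, 6.26 and 6.32 at 10 nM AG014699, 7.91, 7.87 and 7.55 at 100 nM, 6.15, 6.14 and 5.98 with LY294002 and 8.32, 8.14 and 8.22 in the combination, against 5.71, 5.67 and 5.26 in DMSO. The 10 nM and LY294002 arrays overlapped each other and lay above DMSO, while 100 nM AG014699 and the combination stood clear of the rest.

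The 2 probes of H2BC12 both rose at 100 nM. Probe 1 had 11.40, 11.35 and 11.15 at 10 nM AG014699, 12.26, 12.32 and 12.50 at 100 nM, 11.33, 11.51 and 11.45 with LY294002 and 12.39, 12.42 and 12.71 in the combination, against 10.67, 10.42 and 10.83 in DMSO. The arrays of 100 nM and of the combination overlapped, as did those of 10 nM and of LY294002, and DMSO was lowest. At 100 nM the change against DMSO was 1.72 (SE 0.15, limma adjusted p = 2e-06) for probe 1 and 1.91 (SE 0.14, limma adjusted p = 4.55e-07) for probe 2. Probe 2 averaged 9.19 ± 0.18 at 100 nM and 7.28 ± 0.15 in DMSO (SD, n = 3 each).

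The 2 probes of H2BC5 also both rose at 100 nM. Probe 1 had 8.50, 8.26 and 8.37 at 10 nM AG014699, 9.61, 9.67 and 9.37 at 100 nM, 8.86, 8.98 and 9.02 with LY294002 and 10.31, 10.27 and 10.16 in the combination, against 7.78, 7.59 and 7.91 in DMSO. As with H2BC21, no 2 groups overlapped and the order of the groups was combination, 100 nM AG014699, LY294002, 10 nM AG014699 and DMSO. The change at 100 nM against DMSO was 1.79 (SE 0.13, limma adjusted p = 4.8e-07) for probe 1 and 1.19 (SE 0.24, limma adjusted p = 0.00351) for probe 2. Probe 2 spread more between arrays, with 6.43 on array 3 of the 10 nM group beside 7.41 and 7.40 on the other arrays.

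H2BC11 and H2BC6 also rose at 100 nM. H2BC11 had 6.70, 7.00 and 6.82 at 100 nM AG014699, against 6.0, 5.61 and 5.84 in DMSO, a change of 1.03 (SE 0.18, limma adjusted p = 0.00125). H2BC6 had 6.10, 5.68 and 5.79 at 100 nM, against 5.21, 4.77 and 5.11 in DMSO, a change of 0.82 (SE 0.21, limma adjusted p = 0.015). The groups did not overlap for either gene, but only 1 of the 3 DMSO arrays detected H2BC6. The call of H2BC6 ended without array 1 of the 100 nM group (adjusted p = 0.0624) and without DMSO array 2 (adjusted p = 0.0717), over a range of 0.00941 to 0.0853 in all alternatives.

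H2BC9, a neighbour of H2BC8 in the cluster, was the member that fell. Its log2 signals were 7.12, 7.27 and 6.96 at 10 nM AG014699, 6.35, 5.84 and 6.22 at 100 nM, 6.52, 6.99 and 6.48 with LY294002 and 6.29, 6.08 and 6.04 in the combination, against 7.08, 6.81 and 7.09 in DMSO. The arrays of 100 nM and of the combination overlapped and lay below those of the other 3 groups. The change at 100 nM against DMSO was -0.85 (SE 0.18, limma adjusted p = 0.00435), and in the combination against DMSO it was also -0.85 (SE 0.18, limma adjusted p = 0.00473).

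H2BC4, H2BC7 and H2BC15 did not pass at 100 nM. H2BC4 was at 0.45 (95% interval -0.12 to 1.02, limma adjusted p = 0.298) and H2BC7 at -0.07 (-0.54 to 0.39, adjusted p = 0.87). H2BC15 was not well above background on any DMSO array and was detected on 2 of 3 arrays at 100 nM. Its mean was at least 1.03-fold higher at 100 nM, but the arrays of the groups overlapped and the difference was not called (limma adjusted p = 0.0886). H2BC7 was detected on 1 of 3 arrays at 100 nM and on 1 of 3 in DMSO.

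**Figure D2:**
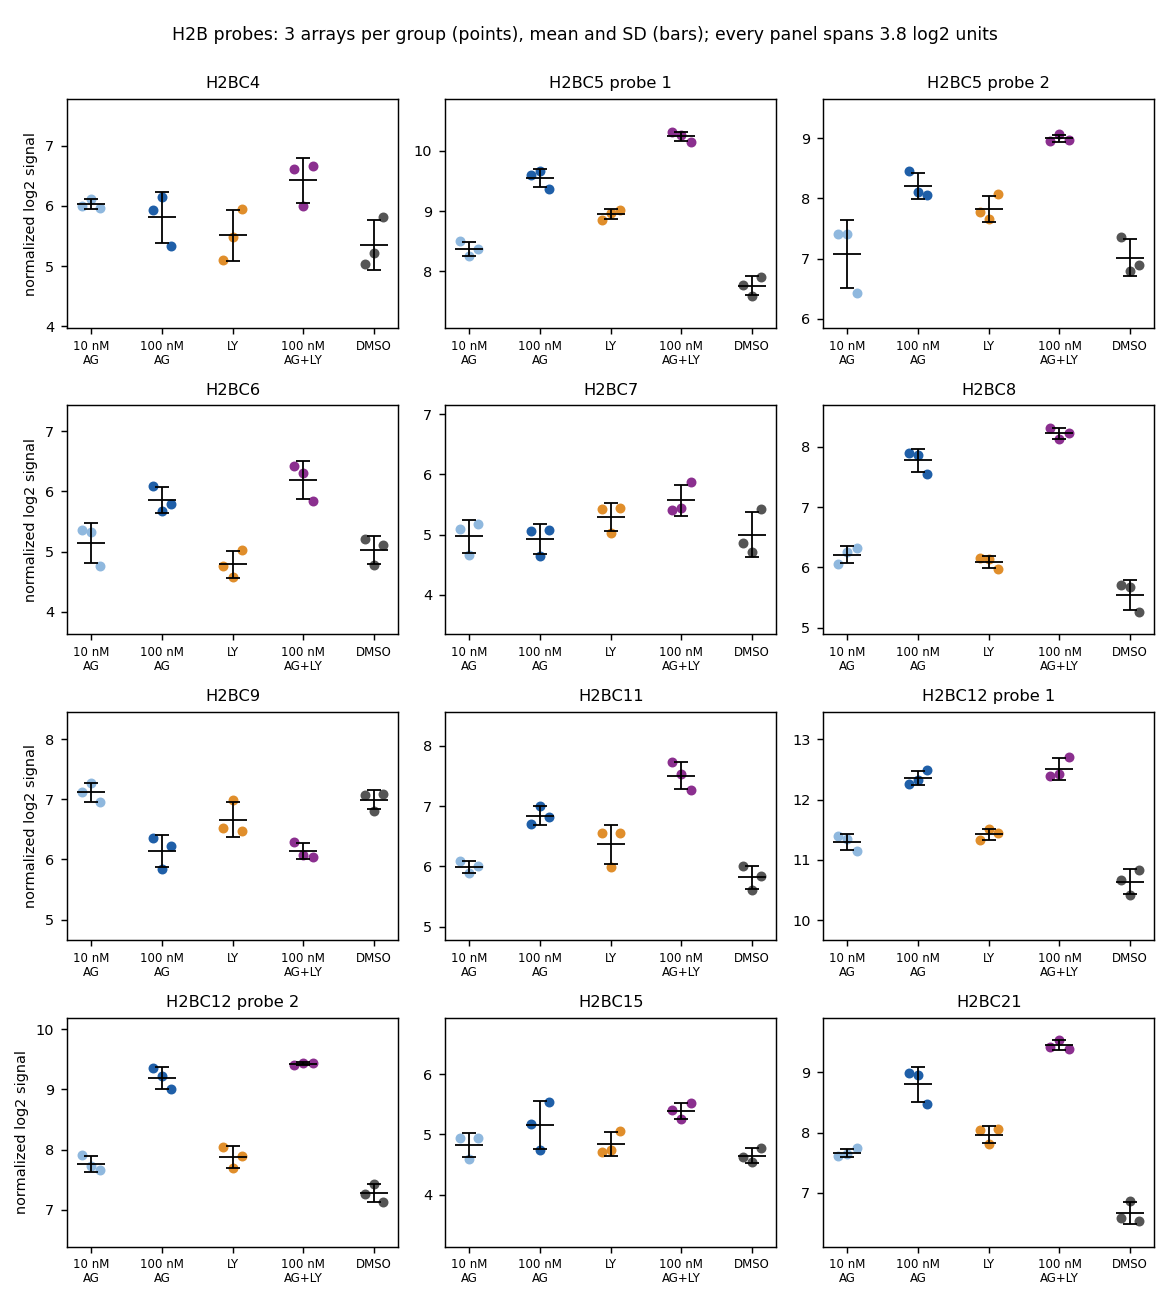
Normalized log2 signal of each of the 12 H2B probes on each array (points), with group mean and SD (bars), in 10 nM AG014699, 100 nM AG014699, LY294002, the combination and DMSO. H2BC21, H2BC8, both H2BC12 probes and both H2BC5 probes have their highest mean in the combination and their lowest in DMSO, and H2BC9 has its lowest means at 100 nM AG014699 and in the combination.

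The size of these changes depends on the background correction. Without it, the 8 probes that rose at 100 nM changed by 0.30 for H2BC6 up to 1.67 for H2BC12 probe 1, and H2BC8 changed by 1.19, or 2.27-fold, in place of 4.69-fold. H2BC12 probe 1, a bright probe, changed little with the correction, at 3.18-fold without it and 3.30-fold with it. For H2BC21 the change was 2.83-fold without it and 4.43-fold with it. H2BC9, the member that fell, changed by -0.44 on the log2 scale without it and by -0.85 with it. In the combination against DMSO, the change without it was 2.87-fold for H2BC8, 4.15-fold for H2BC21 and 1.87-fold for H2BC11, in place of 6.41-fold, 6.93-fold and 3.23-fold. For H2BC4 and H2BC6 it was 1.35-fold and 1.36-fold there, in place of 2.1-fold and 2.23-fold. H2BC8 without it was 1.89-fold higher at 100 nM than at 10 nM, in place of 2.95-fold, and 2.48-fold higher in the combination than with LY294002, in place of 4.41-fold. All these changes passed without the correction too.

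At 10 nM AG014699, 3 of 12 H2B probes rose against DMSO and none fell, while 0.866% of all tested probes rose and 0.249% fell. All 10 nM arrays lay above all DMSO arrays for 6 of the 12 probes and below them for 0, against 8.79% and 8.53% of all tested probes. H2BC21 changed by 1.00 (SE 0.16, limma adjusted p = 0.00292), H2BC12 probe 1 by 0.66 (SE 0.15, limma adjusted p = 0.0433) and H2BC5 probe 1 by 0.61 (SE 0.13, limma adjusted p = 0.0388). H2BC8, at 0.67 (SE 0.15), lay just outside with an adjusted p of 0.0512. The second probes did not pass, at 0.49 (SE 0.14) for H2BC12 and 0.07 (SE 0.24) for H2BC5. The count was 1 without array 1, 2 or 3 of the 10 nM group or without DMSO array 1 or 2, in fits in which 150 to 180 of all probes passed. It was 0 when the 5 arrays numbered 1 were left out together, which leaves 2 arrays in each group, and 103 of 21624 probes passed there. H2BC21 kept its call without any 1 array, with adjusted p-values of 0.00106 to 0.113 over all alternatives, the highest being that without the arrays numbered 1. Its change at 10 nM ran from 0.62 to 1.11 over all alternatives.

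Set directly against 10 nM, 100 nM AG014699 raised 7 of the 12 H2B probes and lowered 1, and 2.83% of all tested probes were higher and 2.76% lower. H2BC8 was higher by 1.56 (SE 0.15, limma adjusted p = 4.65e-05), H2BC12 probe 2 by 1.43 (SE 0.14), H2BC5 probe 1 by 1.17 (SE 0.13) and H2BC21 by 1.14 (SE 0.16). H2BC9 was lower at 100 nM, at -0.98 (SE 0.18, limma adjusted p = 0.00451). H2BC11 differed by 0.85 (SE 0.18, limma adjusted p = 0.0114), a call lost without array 2 of the 10 nM group (adjusted p = 0.0534, range 0.00638 to 0.0534). H2BC5 probe 2 differed by 1.12 (SE 0.24, limma adjusted p = 0.0122), a call lost without array 1 of the 100 nM group (adjusted p = 0.0506, range 0.000937 to 0.0796).

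LY294002 alone raised 3 of 12 H2B probes against DMSO, in a comparison in which 0.186% of all tested probes rose and 0.266% fell. All LY294002 arrays lay above all DMSO arrays for 6 of the 12 probes and below them for 0, against 7.75% and 8.21% of all tested probes. H2BC21 had 8.04, 7.81 and 8.05 with LY294002, against 6.58, 6.87 and 6.53 in DMSO, a change of 1.31 (SE 0.16, limma adjusted p = 0.000971) or 2.48-fold. Over all alternatives that change of H2BC21 ran from 0.84 to 1.41. H2BC5 probe 1 changed by 1.19 (SE 0.13, limma adjusted p = 0.000522) or 2.29-fold, and H2BC12 probe 1 by 0.79 (SE 0.15, limma adjusted p = 0.0279). The other probes of H2BC5 and H2BC12 were at 0.82 (SE 0.24, adjusted p = 0.179) and 0.60 (SE 0.14, adjusted p = 0.0965), with all LY294002 arrays above all DMSO arrays. H2BC8 was at 0.54 (95% interval 0.21 to 0.87), H2BC11 at 0.55 (0.17 to 0.93) and H2BC9 at -0.33 (-0.70 to 0.05), and none of these passed. H2BC6 was not well above background on any LY294002 array and was detected on 1 of 3 DMSO arrays, so no fold is given.

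The calls of H2BC21 and H2BC5 with LY294002 held without any 1 array. That of H2BC12 probe 1 ended without each LY294002 array and without DMSO array 1 or 2 (adjusted p 0.00102 to 0.234 over all alternatives). With the 5 arrays numbered 1 left out, 0 of the 12 probes passed, with adjusted p-values of 0.111 for H2BC21 and 0.0587 for H2BC5 probe 1, in a fit in which 13 of 21624 probes passed.

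In the combination 10 of 12 H2B probes rose against DMSO and 1 fell, against 7.18% and 5.9% of all tested probes. All combination arrays lay above all DMSO arrays for 10 of the 12 probes and below them for 1, against 16.7% and 16.9% of all tested probes. The probes that rose belong to 8 genes, which include H2BC4 and H2BC15. H2BC15 passed the filter only through the groups where it was high, so its place in this count is partly set by the filter. It kept its call without the filter. H2BC21 averaged 9.45 ± 0.08 in the combination and 6.66 ± 0.18 in DMSO (SD, n = 3 each), a change of 2.79 (SE 0.16, limma adjusted p = 3.04e-08) or 6.93-fold. H2BC8 changed by 2.68 (SE 0.15) or 6.41-fold, H2BC5 probe 1 by 2.48 (SE 0.13) or 5.59-fold, H2BC12 probe 2 by 2.15 (SE 0.14) and H2BC11 by 1.69 (SE 0.18). The median change of the 12 probes was 1.78, against -0.02 over all tested probes.

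H2BC4 had 6.62, 5.99 and 6.66 in the combination, against 5.03, 5.21 and 5.82 in DMSO, a change of 1.07 (SE 0.27, limma adjusted p = 0.0153). The groups did not overlap, and the call ended without combination array 1 or 3 or without DMSO array 1 or 2 (adjusted p 0.00813 to 0.184 over all alternatives). H2BC15 was not detected on any DMSO array and was at least 1.21-fold higher in the combination (limma adjusted p = 0.0161), where all 3 arrays detected it. That call ended without combination array 3 (adjusted p = 0.0654) and without DMSO array 2 (adjusted p = 0.0611), over a range of 0.00296 to 0.137. A bound of this kind sets the mean of the group that detects a probe against the dimmest detected signal of the arrays that do not. It makes no allowance for spread between arrays. H2BC7 was at 0.57 (95% interval 0.11 to 1.03, limma adjusted p = 0.102). It passed with the replicate number as a block, at the same 0.57 (limma adjusted p = 0.0155), and without DMSO array 3, at 0.78 (limma adjusted p = 0.0362).

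**Figure D3:**
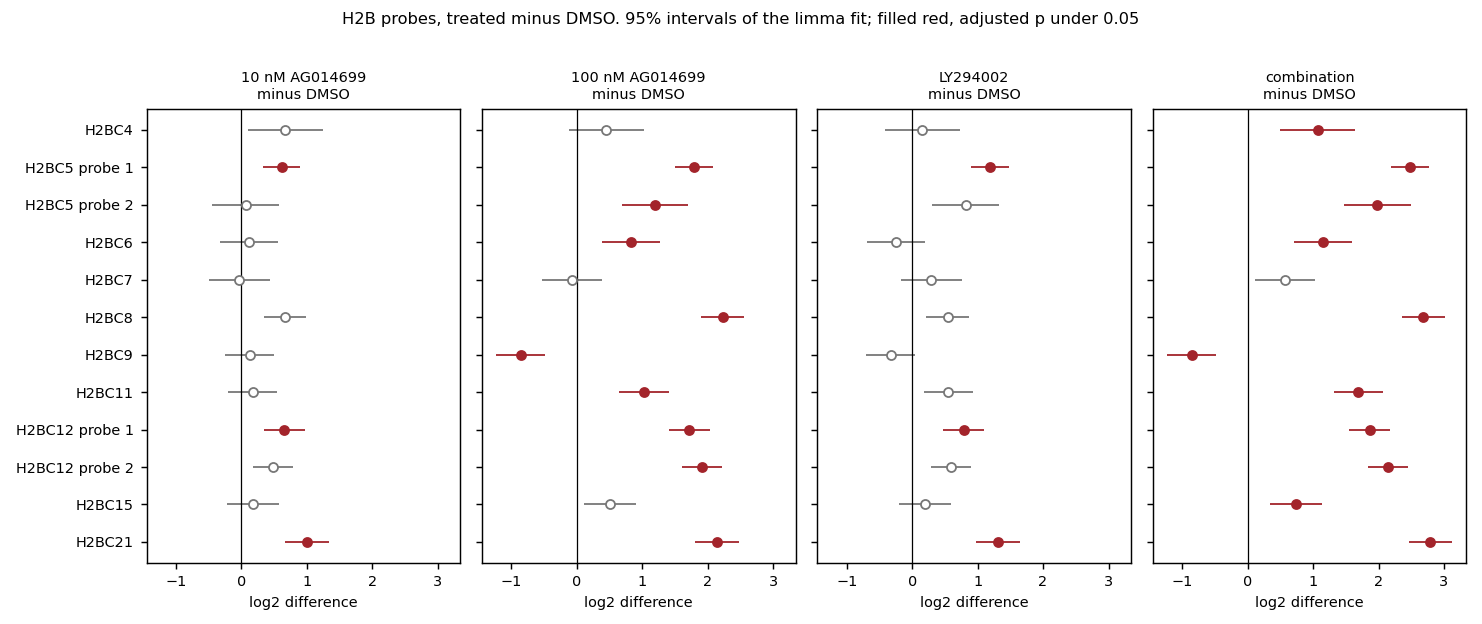
Log2 differences of the 12 H2B probes between each treated group and DMSO, with 95% intervals of the limma fit and filled red points where the adjusted p was under 0.05. Of 12 probes 3 are filled at 10 nM AG014699, 9 at 100 nM, 3 with LY294002 and 11 in the combination, and H2BC9 lies below 0 at 100 nM and in the combination.

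Against LY294002 alone the combination raised 9 of 12 H2B probes, and lowered 0, while 6.25% of all tested probes rose and 5.16% fell. H2BC8 was higher by 2.14 (SE 0.15, limma adjusted p = 4.88e-07), H2BC12 probe 2 by 1.55 (SE 0.14), H2BC21 by 1.48 (SE 0.16) and H2BC5 probe 1 by 1.29 (SE 0.13). H2BC6, which no LY294002 array detected, was at least 2.03-fold higher in the combination with background correction (limma adjusted p = 0.000446). Without the correction the means of H2BC6 differed by 1.45-fold (limma adjusted p = 0.000765), so the bound holds only on the corrected scale. H2BC4 changed by 0.92 (SE 0.27, limma adjusted p = 0.0372), a call lost without combination array 1 or 3 or without LY294002 array 1 or 2 (adjusted p 0.0199 to 0.334 over all alternatives). H2BC9 was at -0.53 (SE 0.18, limma adjusted p = 0.0686).

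Against 100 nM AG014699 alone, 0 of 12 H2B probes passed in the combination with limma, and 0.131% of all tested probes did (0.0169% higher, 0.114% lower). At an unadjusted p under 0.05 there were 7 H2B probes, of 2256 among all 23680. All combination arrays lay above all 100 nM arrays for 7 of the 12 probes and below them for 0, against 7.95% and 7.34% of all tested probes. H2BC5 probe 1 had 10.31, 10.27 and 10.16 in the combination, against 9.61, 9.67 and 9.37 at 100 nM AG014699, a difference of 0.69 (95% interval 0.41 to 0.98, limma adjusted p = 0.0649). H2BC21 differed by 0.64 (0.31 to 0.98, adjusted p = 0.159), and the brightest H2BC12 probe by 0.15 (-0.17 to 0.46). Without background correction 3 H2B probes passed in this comparison, of 116 among all 23680. They were those of H2BC5 at 0.63 and 0.64 (limma adjusted p = 0.00203 and 0.0324) and that of H2BC21 at 0.55 (limma adjusted p = 0.0185).

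The interaction compares the change by LY294002 in the presence of 100 nM AG014699 with that in its absence. It passed for 0 of 12 H2B probes in limma and for 0.00422% of all tested probes. At an unadjusted p under 0.05 there were 3 H2B probes, of 1438 among all 23680. The estimates were -0.67 (95% interval -1.14 to -0.19, adjusted p = 0.703) for H2BC21, -0.64 (-1.09 to -0.20, adjusted p = 0.703) for H2BC12 probe 1 and -0.50 (-0.90 to -0.09, adjusted p = 0.771) for H2BC5 probe 1. For H2BC8 the estimate was -0.09 (-0.55 to 0.37) and for H2BC11 0.11 (-0.42 to 0.65). The sign differed among members, with 6 of the 12 above 0.

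**Figure D4:**
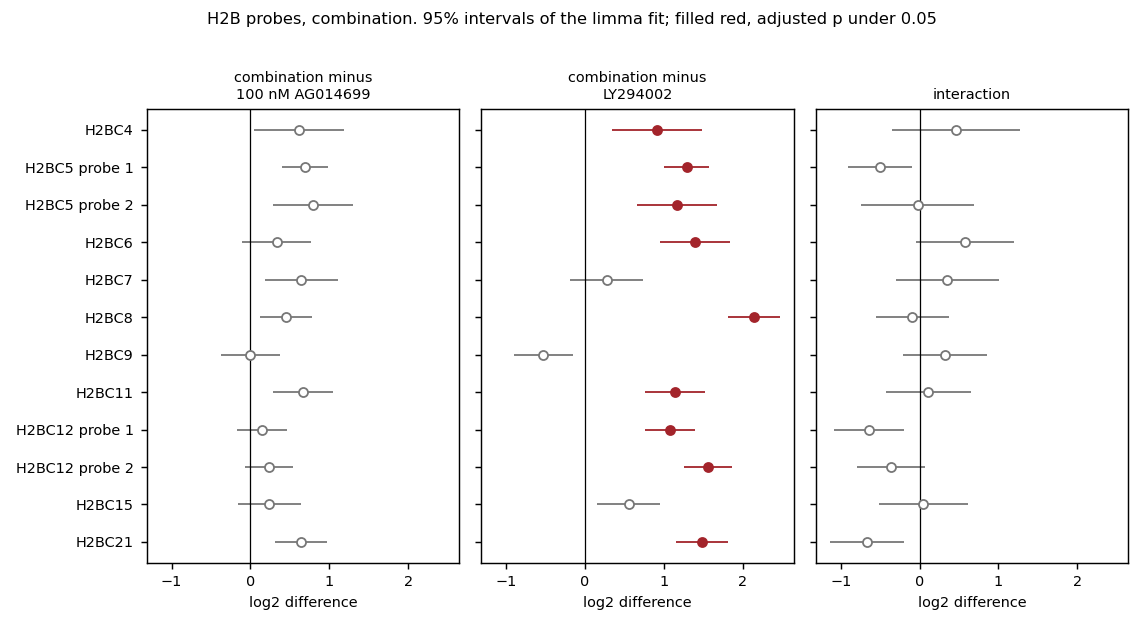
Log2 differences of the 12 H2B probes between the combination and 100 nM AG014699, between the combination and LY294002, and the interaction of the drugs, with 95% intervals of the limma fit and filled red points where the adjusted p was under 0.05. Of 12 points 9 are filled against LY294002, and 0 are filled against 100 nM AG014699 or in the interaction.

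The members' changes were spread widely within the same arrays, and differences between members were not tested. Changes at 100 nM against DMSO ran from -0.85 for H2BC9 to 2.23 for H2BC8, which lie side by side among the members of the chromosome 6 cluster. H2BC5, H2BC6, H2BC7, H2BC8 and H2BC9 follow each other there, with changes of 1.79 (probe 1), 0.82, -0.07, 2.23 and -0.85. Taken over the 15 arrays, the signals of H2BC21, H2BC5 probe 1, H2BC8 and H2BC12 probe 2 had Pearson correlations of 0.94, 0.95, 0.94 and 0.95 with H2BC12 probe 1, that of H2BC7 had 0.37 and that of H2BC9 had -0.81. These describe 15 arrays in 5 groups, so they reflect the group means as well as the arrays.

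For 6 members the nearest H2A gene with a promoter window lies head to head with it, with 194 to 248 bases between the starts, so that the pair shares 1 stretch of promoter DNA. Any H2A gene without a window would be missed, so the remaining members, H2BC12 among them, may have a partner too. Of these partners H2AC20, next to H2BC21, rose by 1.11 (SE 0.18, limma adjusted p = 0.000801) at 100 nM against DMSO, and H2AC11, next to H2BC11, rose by 0.97 (SE 0.28, limma adjusted p = 0.0322). H2AC8, next to H2BC8, was at 0.33 (SE 0.22, limma adjusted p = 0.362) at 100 nM and rose by 1.23 (SE 0.22, limma adjusted p = 0.00154) in the combination against DMSO. H2AC7, next to H2BC7, was at -0.33 (SE 0.22, limma adjusted p = 0.378) at 100 nM, and H2AC6, next to H2BC4, at -0.29 (SE 0.16, limma adjusted p = 0.268). The partner of H2BC15 was not measured, and differences between partners were not tested.

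Other histone genes were set beside the family, each by its brightest probe, among 12302 genes of which 8.97% rose and 8.71% fell at 100 nM against DMSO. In the LY294002 comparison 0.268% of these genes rose and 0.439% fell, and in the combination against DMSO 8.93% rose and 7.65% fell. Of 29 measured replication-type genes of H1, H2A, H3 and H4, 14 rose and 0 fell at 100 nM, with a median of 0.60. H2AC18 changed by 2.17 (SE 0.12), H4C8 by 1.99 (SE 0.19), H2AC19 by 1.52 (SE 0.15) and H2AC21 by 1.37 (SE 0.18). H2AC18 and H2AC19 are near-identical copies, so their signals may be shared. With LY294002 1 of the 29 rose against DMSO, H2AC18 at 0.98 (SE 0.12, limma adjusted p = 0.00108), with a median of 0.16. In the combination 16 rose and 1 fell, with a median of 0.69. The remaining H2B genes with a probe, H2BC17 and H2BC18, were at 0.69 (SE 0.24, limma adjusted p = 0.0706) and 0.49 (SE 0.22, limma adjusted p = 0.154) at 100 nM.

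Of 12 measured replacement histone genes, which are expressed outside S phase as well, 3 rose and 1 fell at 100 nM, with a median of 0.05. MACROH2A2, a large H2A variant, fell by 0.98 (SE 0.15, limma adjusted p = 0.000472) on the log2 scale, and H2AJ rose by 0.69 (SE 0.16), H3-5 by 0.53 (SE 0.15) and H3-3B by 0.50 (SE 0.13). Of 20 genes of histone mRNA transcription and processing 2 rose at 100 nM, HINFP, a transcription factor of H4 genes, at 0.84 (SE 0.16), and FIP1L1, a polyadenylation factor, at 0.72 (SE 0.20). Of 19 genes of histone chaperones and H2B ubiquitination, not all of them specific to H2A and H2B, 2 fell. They were the histone chaperone gene NASP at -0.92 (SE 0.13, limma adjusted p = 0.000325) and the deubiquitinase gene USP22 at -0.63 (SE 0.20, limma adjusted p = 0.0436).

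Of 51 measured genes of DNA replication and S phase, 7 rose and 2 fell at 100 nM against DMSO, with a median of 0.04, and 2 rose and 4 fell in the combination, with a median of -0.03. The helicase gene MCM2 rose by 1.09 (SE 0.26, limma adjusted p = 0.0116) at 100 nM, CDC25A by 0.80 (SE 0.15), and TIMELESS and DUT were at -0.82 (SE 0.14) and -0.74 (SE 0.16). With LY294002 0 of the 51 passed.

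Of 24 measured RNAs that are known to lack a poly(A) tail, 15 rose and 0 fell at 100 nM against DMSO, with a median of 1.17 and a range of -0.26 to 2.47. The 28S ribosomal RNA gene RNA28SN5 changed by 2.47 (SE 0.35), RN7SK, a small RNA that regulates transcription elongation, by 2.21 (SE 0.18), and the small nucleolar RNA genes SNORD3A and SNORD3C by 2.20 (SE 0.16) and 2.17 (SE 0.18). SNORD3A and SNORD3C are copies of 1 RNA, and their probes may share it. In the combination 15 rose, with a median of 1.14, and at 10 nM 3 rose, with a median of 0.36. With LY294002 alone 0 of the 24 passed, with a median of -0.07 and a highest value of 0.32, in the comparison in which H2BC21 changed by 1.31. The part of these RNAs' shift, or of a shift in labelling, in the H2B changes at 100 nM was not tested.

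**Figure D5:**
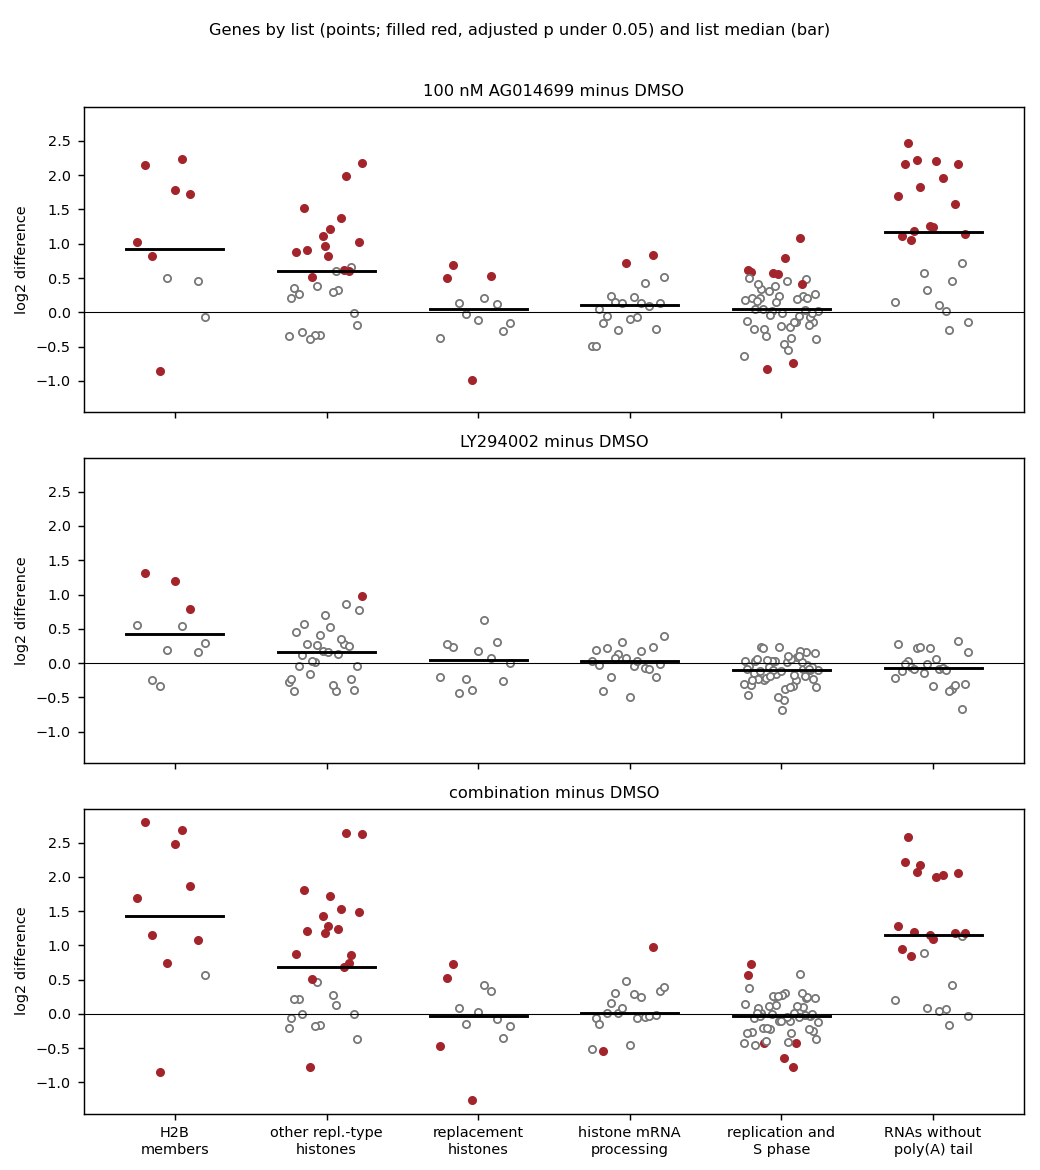
Log2 differences against DMSO of the genes in 6 lists (1 probe a gene, filled red where the limma adjusted p was under 0.05) at 100 nM AG014699, with LY294002 and in the combination, with list medians as bars. RNAs without a poly(A) tail have medians of 1.17, -0.07 and 1.14 in the 3 panels and the 10 H2B genes 0.93, 0.42 and 1.42.

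The probes outside the histone lists whose signal ran most like that of H2BC12 probe 1 over the 15 arrays were those of CREBRF (Pearson r = 0.98), ID2 (0.97), BEX4 (0.97), VGF (0.97), DHRS2 (0.97), GADD45G (0.97), ZNF789 (0.96), ANGPTL4 (0.96), GADD45B (0.96) and C1orf54 (0.96). ID2 encodes an inhibitor of basic helix-loop-helix transcription factors, and GADD45G and GADD45B encode stress-induced proteins. At 100 nM against DMSO DHRS2 changed by 2.74, ID2 by 2.54, GADD45G by 2.38 and CREBRF by 2.10. These values share the arrays and the 5 groups with H2BC12.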

How the data were processed

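For 48107 probes on 15 arrays, the authors deposited an intensity on a linear scale next to a detection p-value, per the file headers. RNA was labelled with the Ambion MessageAmp kit, per the labels' protocols. The deposited intensity values had medians of 114 to 115 on all arrays, so the arrays were on a common scale as deposited. The table of log2 values deposited by the authors equalled the log2 signal minus the probe mean to within 1.00e-07 for 13867 complete probes. How the deposited detection p-value was computed is not given in the sources used here. Array 1 of 100 nM AG014699 holds whole numbers only.

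With R 4.3.3 and limma 3.58.1, 48105 complete probes were processed with neqc (offset 16), and limma (lmFit, eBayes) was fitted to 5 group means over the 23680 probes that 3 or more arrays detected (detection p under 0.05). Benjamini-Hochberg adjustment ran over all these probes in each of 8 comparisons. Gene names came from the array annotation of 17526 probes, which covers only probes of the log2 table, joined to RefSeq by gene ID with 0 symbols changed. The annotation thus favours detected probes. The fit was tested on simulated data. Members and gene lists were chosen with earlier results of these data known, and the lists were written from general knowledge. All member H2B probes were named, with up to 4 genes of largest change per list and the 10 probes most like the brightest H2B probe. The nearest H2A gene of each member was added later, by position alone. Alternatives changed the background correction, value source, filter, unit, array weights, groups, replicate block and arrays.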

Additional observations from a re-analysis of the deposited data

How the results depend on the processing

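Over all alternatives, the 43 called probe results kept their call in 580 of 627 repeats, lost it in 47 and reversed in 0, and results that had not passed gained a call in 27 of 817. Direction was judged for called results. The count of H2B probes for 10 nM AG014699 against DMSO was 3 in the main analysis. It was 1 with only the compared groups fitted, 1 to 2 without 1 array and 0 without the arrays numbered 1. Among all probes 167 of 23680 passed with only the compared groups and 103 of 21624 without the arrays numbered 1. For LY294002 against DMSO the H2B count, 3 in the main analysis, was 2 to 3 without 1 array. It was 0 without the arrays numbered 1, where 13 of all 21624 probes passed. For the combination against 100 nM AG014699 the H2B count was 0 in the main analysis and 0 without any 1 array. It was 3 without background correction (of 116 among all 23680 probes) and 2 with normexp (of 84 among 23680). With the authors' log2 table it was 3 (of 86 among 13867), without the filter 1 (of 37 among 48105) and with 1 probe per gene 1 (of 41 among 12302). For the combination against DMSO it was 7 of the 7 probes complete in the authors' log2 table, since 5 had blanks, in place of 11. Of all probes 3517 of 13867 passed in that fit, and 3097 of 23680 in the main analysis. Without 1 array the H2B count was 9 to 12 for the combination against DMSO and 8 to 10 for 100 nM against DMSO. It was 7 to 8 for 100 nM against 10 nM, 8 to 9 for the combination against LY294002 and 0 for the interaction. For these fits, and for those of LY294002 against DMSO without 1 array, the numbers of all probes called are not given here. A general shift in calls thus cannot be told apart from a shift in these probes. The cause of these shifts was not tested, and some of the alternatives also hold fewer arrays or probes. Same-numbered arrays deviated together in part: deviations correlated over 0.1 in 21 of 30 same-numbered pairs, and 14 of 15 arrays were closest to their own number, a hint from the data that the numbers mark something shared. All 3 pairs exceeded 0.1 for the combination with DMSO (0.14 to 0.21), and not all 3 did for the other 9 pairs of groups. With the block H2BC7 gained a call in the combination against DMSO. So did H2BC8 at 10 nM against DMSO and H2BC6 at 100 nM against 10 nM. H2BC15 gained calls at 100 nM against DMSO and in the combination against LY294002. With the replicate block the counts were 4, 10, 9, 3, 12, 0, 10 and 0 in the order 10 nM against DMSO, 100 nM against DMSO, 100 nM against 10 nM, LY294002 against DMSO, combination against DMSO, against 100 nM and against LY294002, and interaction. The shares of all probes called with the block are not given here, so a general gain in calls cannot be told apart from a gain in these probes. Array number and signal over background limit the precision: the SE of an H2B probe was 0.13 to 0.27 in a comparison of 2 groups.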
